A study of Homo sapiens with 2 samples.

Results

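The ZNF genes of chromosome 19 encode proteins with arrays of C2H2 zinc fingers, which bind DNA, and they lie in long tandem clusters. They were chosen by name and position: every gene name on the array made of ZNF, digits and at most 1 further capital letter, with its probes on chromosome 19 (hg19) and no control spots. This rule found 248 gene names with 373 probes, out of 517 such ZNF names and 43317 gene names on the array. The rule itself used no measured value, though it was set with earlier results of these data known. Of the 248, 238 are protein-coding and 10 are transcribed pseudogenes in RefSeq, where 245 names are current and 3 are older (ZNF812, ZNF788 and ZNF807, now listed as pseudogenes).

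The measurements come from Ca9-22, a cell line of human oral squamous cell carcinoma (OSCC). Cells were infected either with a lentivirus carrying the full-length cDNA of DLEU1, a long noncoding RNA, cloned from the OSCC line KON, or with the empty control vector. Both were grown under blasticidin at 6 mg/ml for 2 weeks, so both groups are populations of selected infected cells on the same parental background. Each RNA was hybridised to 1 Agilent array, and the study used the pair to ask how ectopic DLEU1 alters expression in OSCC cells. With 1 array per vector there is no replicate spread, no test and no p-value for any value given here, and the small number of arrays sets their precision.

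Most C2H2 zinc-finger proteins of these clusters carry a KRAB domain, which recruits the corepressor TRIM28 (KAP1). TRIM28 in turn brings SETDB1, which methylates histone H3 at lysine 9, together with heterochromatin proteins and DNA methylation. Many of these proteins bind transposable elements and hold them silent, for example ZNF91 at SVA elements and ZNF93 at LINE-1 elements. The genes arose by tandem duplication, so neighbours are alike in sequence, and their own bodies carry the histone mark that SETDB1 writes. Which members carry a KRAB domain was not determined here.

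Values below are log2 levels, the log2 of the processed spot signal minus the 75th percentile of its array (7.92 and 7.88 for control and DLEU1 vector). A difference is always DLEU1 vector minus control vector, and a gene takes the value of its brightest probe that was well above background on both arrays. Repeated spots of 1 probe gave differences with an SD of 0.0800 (282 probes), and different probes of the same member gene gave an SD of 0.42 (43 genes). Both arrays lay on 1 slide and were read in 1 scan. Of the 3 DLEU1 probes, all higher with the DLEU1 vector, the brightest (chromosome 13, 50679272 to 50679331) went from 3.17 to 5.91, and those of another transcript differed by 0.85 and 0.54. Other gene lists differed widely between the arrays. All 18 of 18 proliferation genes were lower (median difference -2.73), and 11 of 11 keratinocyte differentiation genes detected on both arrays were higher (median 5.10). All 7 squamous epithelial markers were detected on both arrays. Of the 6 fibroblast markers COL1A2, COL3A1 and DCN were on neither array, LUM was well above background with the DLEU1 vector only, COL1A1 went from 0.47 to 4.47, and PDGFRB was dim with both vectors (-3.51 and -3.84). Among leukocyte markers CD3E was on neither array and PTPRC went from -1.74 to -1.28 and CD14 from -1.96 to -3.56. The part of these shifts in the ZNF values was not tested, and in RNA from whole cultures fewer cells of a kind and less RNA per cell cannot be told apart.

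Of the 248 ZNF genes, 175 (70.6%) were well above background on both arrays, 9 on the control vector array only, 2 on the DLEU1 vector array only and 62 (25%) on neither. Among all gene names 46.7% were detected on both arrays, and among the 269 ZNF names of other chromosomes 81.8%. By probes, 240 of 373 ZNF probes passed detection in control cells and 228 in DLEU1 cells. Over all probes of the array the detected shares were 47.6% and 48.1%, in the opposite order.

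Along the chromosome the members fell into 9 clusters, defined as at least 5 members with no gap over 1 Mb between neighbours, which held 237 genes. The other 11 stood alone or in smaller groups and are called isolated. Cluster 9 at the end of the long arm was the largest with 60 genes, followed by cluster 8 with 40 and cluster 4, next to the centromere, with 34. The share detected on both arrays ran from 57.7% in cluster 6 to 87.5% in cluster 2.

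**Figure D1:**
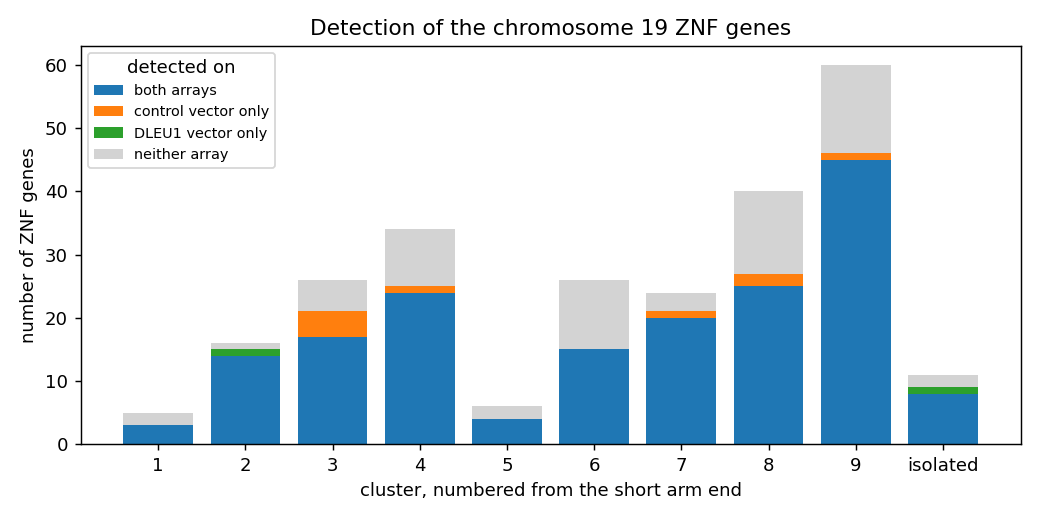
Number of chromosome 19 ZNF genes by cluster, numbered from the short arm end, with colours for detection on both arrays, on 1 array only or on neither. All clusters held genes detected on neither array, 14 in cluster 9, 13 in cluster 8 and 11 in cluster 6, and 4 of the 9 genes seen with the control vector only lay in cluster 3.

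Some of the genes on neither array, which were 25% of all members, were neighbours, and others stood alone. Whether they lie together more than in a random order was not tested. In cluster 6 the 5 consecutive genes ZNF570, ZNF793, ZNF571, ZNF540 and ZNF781 (37975762 to 38159449) were all below detection, as were the 4 genes from ZNF790 to ZNF568. Cluster 8 held a run of 5 from ZNF415 to ZNF677 (53611354 to 53738749) and a run of 4 from ZNF649 to ZNF615, which includes ZNF350, a partner of BRCA1. In cluster 9 the run of 4 was ZNF471, ZNF470, ZNF71 and ZNF835 (57039511 to 57175012), a short way beyond ZNF542P, ZNF582 and ZNF583. ZNF582, ZNF671 and ZNF154, known as genes whose promoters are methylated in carcinomas, were on neither array. So was the imprinted gene ZNF331 at the end of cluster 8. All of these probes were below detection with both vectors, and methylation was not measured by these arrays.

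Among the ZNF genes detected on both arrays, lower values with the DLEU1 vector were the common case. The median difference was -0.32 (quartiles -0.59 and -0.01), with 133 genes (76%) below 0 and 42 above. Over all 20246 genes detected on both arrays the median was -0.07 and 54.2% were below 0. The ZNF genes also varied less: their differences had an SD over genes of 0.50, against 0.90 over all genes. Other ways to scale the arrays moved the share of members below 0 between 64.6% and 93.1%, and moved all genes with them.

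No member reached a 2-fold higher level with the DLEU1 vector, where 9.18% of all genes did (1858 genes). In the other direction 19 members (10.9%) were at least 2-fold lower, close to the 9.78% of all genes (1981) under this setting. The count of 0 higher members became 1 with quantile normalization, loess or the 75th percentile taken over detected probes, each time through ZNF580. At 1.5-fold, 9 members (5.14%) were higher and 46 (26.3%) lower, against 18.4% and 22% of all genes. At 3-fold the members numbered 0 higher and 1 lower, against 3.82% and 3.31% of all genes. The members' lower shift thus consisted of many small differences rather than of large ones.

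**Figure D2:**
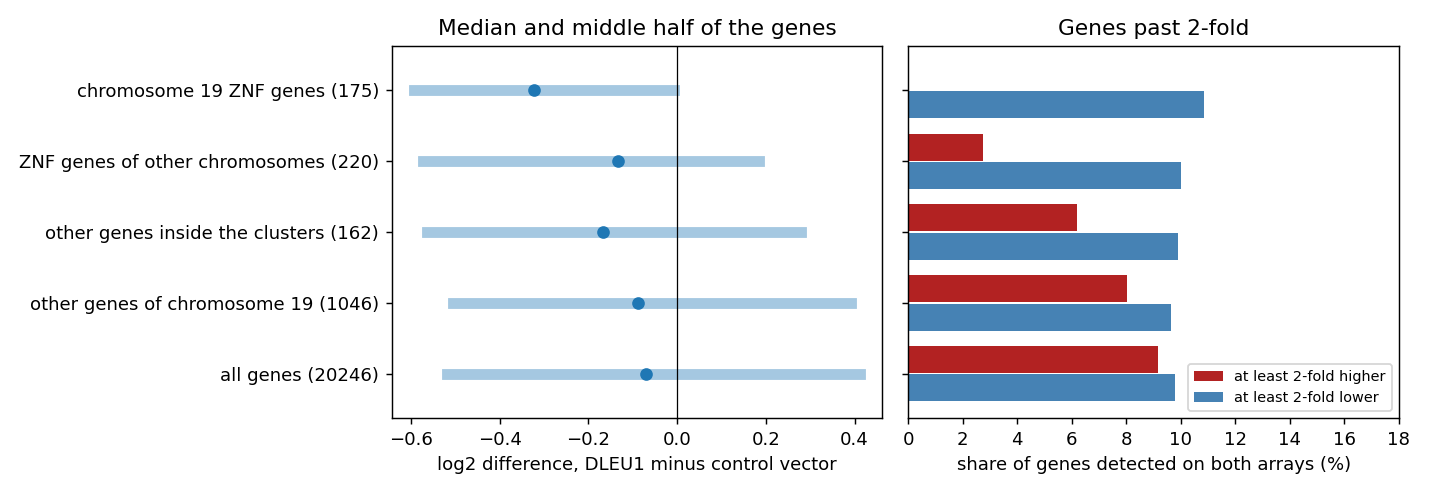
Left, median log2 difference (dot) and the range between the quartiles (bar) for the chromosome 19 ZNF genes and 4 reference groups, with the number of genes detected on both arrays in brackets. Right, share of those genes past 2-fold in either direction. The chromosome 19 ZNF genes have the lowest median (-0.32) and no bar on the higher side, while their lower share of 10.9% is near the others; with 3 of the alternative scalings 1 gene, ZNF580, is counted as higher.

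The neighbours and relatives of these genes were set beside them. The 220 detected ZNF genes of other chromosomes had a median of -0.13, with 6 (2.73%) at least 2-fold higher and 22 (10%) lower. The 162 other detected genes lying inside the 9 clusters had a median of -0.17, with 10 (6.17%) higher and 16 (9.88%) lower. Taken by cluster, their median was below that of the ZNF genes in clusters 3, 7 and 9 and above it in the others. All 1046 other detected genes of chromosome 19 had a median of -0.09. The ZNF genes of chromosome 19 thus had the lowest median of these groups, 0.26 below all other genes and 0.19 below the ZNF genes elsewhere. A difference between groups of genes on the same pair of arrays has no replicate error, so it describes these arrays only.

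The scatter around equal levels was narrow. Members of low, middle and high signal had medians of -0.34 (57 genes, level under -1), -0.33 (60 genes, -1 to 1) and -0.26 (58 genes, 1 or more). All genes in the same ranges had medians of 0.04, 0.01 and -0.17. The members' median was thus below that of all genes in each signal range. The 2 medians lay closest among bright probes (-0.26 against -0.17), where all genes were themselves lowest.

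**Figure D3:**
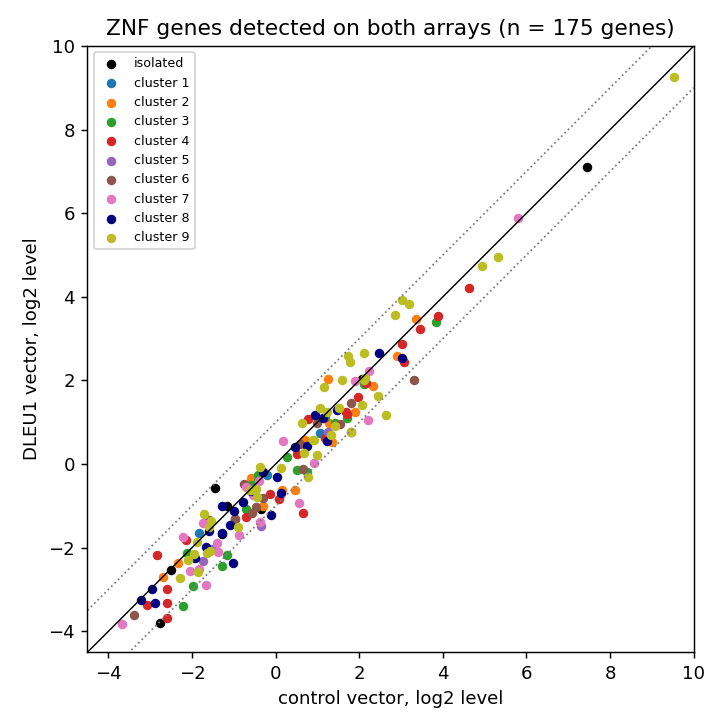
Log2 level of the ZNF genes detected on both arrays, control vector against DLEU1 vector, coloured by cluster. The solid line marks equal levels and the dotted lines 2-fold; 133 genes lie below the solid line, 19 at or below the lower dotted line and none above the upper one under the scaling shown (1 under 3 others).

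By position, all 9 cluster medians were below 0. Counts and runs of lower genes given below by cluster stand against 76% of all detected members and 54.2% of all genes below 0. Whether the runs are longer than in a random order was not tested. Cluster 5 was lowest at -0.54 (4 detected genes), then cluster 3 at -0.44 (17), cluster 4 at -0.42 (24), cluster 6 at -0.34 (15), cluster 7 at -0.33 (20) and cluster 2 at -0.31 (14). Clusters 9 and 8 on the far long arm were at -0.18 (45 and 25 genes), and cluster 1 at -0.05 rested on 3 genes. The median of cluster 1 turned to 0.06 when the 75th percentile was taken over detected probes only and to 0.07 among single-probe genes, and that of cluster 7 to 0.0027 with a signal of at least 100. The isolated genes had a median of -0.19 (8 genes). SDs over the genes of a cluster ran from 0.26 to 0.59.

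**Figure D4:**
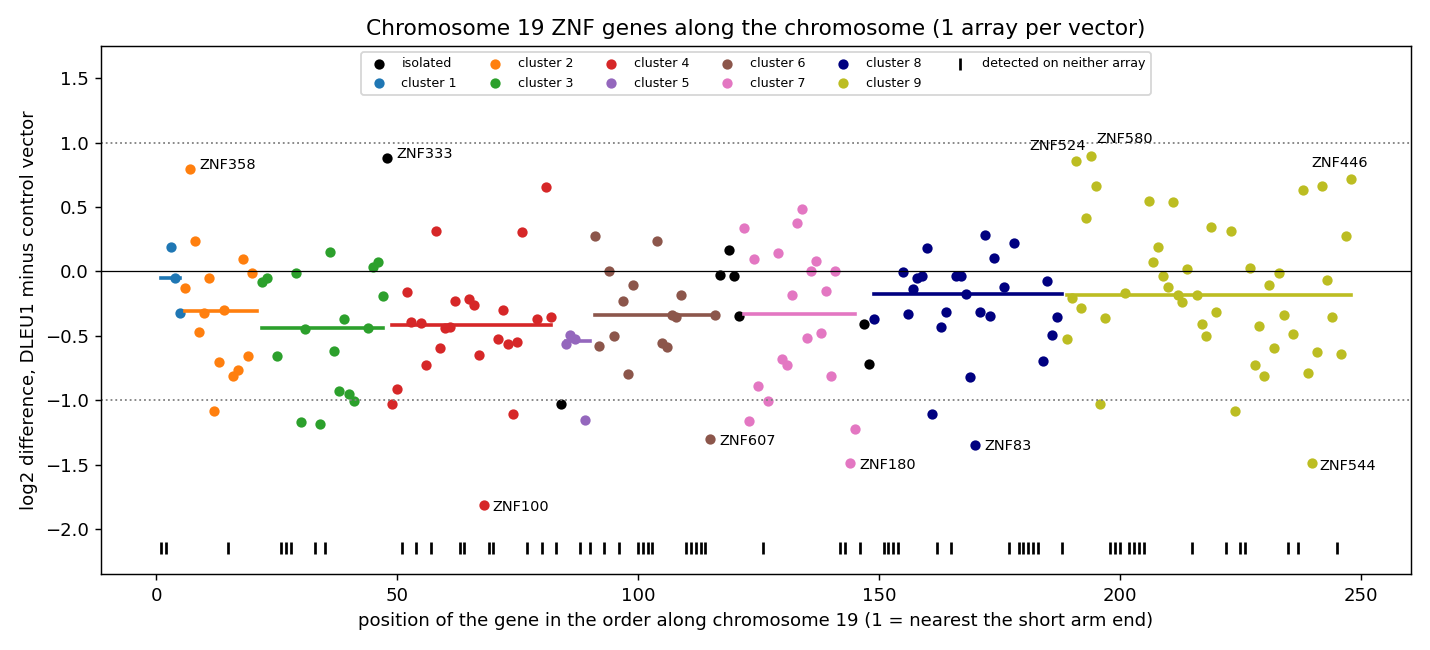
Log2 difference of each detected ZNF gene in its order along chromosome 19, with horizontal bars for the cluster medians and black ticks for genes on neither array. Points below 0 prevail in 8 clusters with more than 3 detected genes, and the highest points lie in clusters 2 and 9 and at the isolated ZNF333. All points between 0 and 0.46 fall below 0 when the spike-in probes are set equal.

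Cluster 1 (2.84 to 2.93 Mb) held 5 genes, 3 of them detected. ZNF556 went from -1.84 to -1.65 (0.19, below 0 with spike-in scaling), ZNF57 from -0.21 to -0.26 and ZNF77 from 1.07 to 0.74. None differed by 1.5-fold.

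Cluster 2 (7.09 to 9.87 Mb) had 11 of 14 detected genes below 0, and the 8 detected genes in a row from ZNF558 to ZNF121 were all lower. ZNF559 was the lowest, going from 0.47 to -0.62, a difference of -1.09. At the other end ZNF358 went from 1.24 to 2.04 (0.79), although the ZNF genes on either side of it, ZNF557 and ZNF414, differed by -0.13 and 0.24. ZNF846 was seen with the DLEU1 vector only, where it was at least 1.63-fold higher. The 45 other detected genes in this interval had a median of 0.23, on the opposite side of 0 from the ZNF genes.

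Cluster 3 (11.60 to 12.74 Mb) had 14 of 17 below 0. At 1.5-fold 7 were lower and none higher, where 22% and 18.4% of all genes were. ZNF844 went from -2.21 to -3.40 and ZNF700 from -1.27 to -2.44, and ZNF442 (-1.01) also passed 2-fold. ZNF563 (-0.95) and ZNF136 (-0.93) were just short of it. The cluster also held 4 genes seen with the control vector only. Of these ZNF833P, a pseudogene, was at least 4.29-fold lower with the DLEU1 vector (control level -1.94) and ZNF443 at least 2.67-fold (control level -2.63), while ZNF433 and ZNF799 were dimmer. The cluster's 11 other detected genes had a median of -0.46, close to that of the ZNF genes.

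Cluster 4 (19.79 to 24.31 Mb) holds the primate-expanded ZNF91 family and had the longest run of lower genes. All 13 consecutive detected genes from ZNF626 to ZNF99 were below 0, and 21 of 24 in all, against 76% of all detected members. Several probes of that run, such as those of ZNF85 and ZNF714, share bases with probes of other genes. ZNF100 (21906880 to 21906939, minus strand) showed the largest difference by the brightest-probe value among members detected on both arrays, from 0.65 to -1.16, which is 3.52-fold lower (-1.82). ZNF492 went from -2.59 to -3.69 and ZNF101, the first gene of the cluster, from 1.80 to 0.77. ZNF91 was well above background with the control vector only (level -3.23 on 1 of its 3 probes), a bound of at least 1.76-fold lower. ZNF93 went from -2.61 to -3.0 (-0.39), on a probe that shares a run of bases with that of ZNF99. On the higher side ZNF726 went from -2.84 to -2.18 (0.66), on a probe that shares a run with that of ZNF254, whose own detected probes differed by -0.35, -0.07 and 0.63.

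Sequence likeness limits how far single genes of this cluster can be told apart. The 60-base probes of ZNF253, ZNF85, ZNF493 and ZNF729, printed here since they carry the codons of the linker that joins neighbouring fingers, overlap in that stretch. Capitals mark the linker codons, and each probe is read from the deposited array files, 5′ to 3′.
ZNF253: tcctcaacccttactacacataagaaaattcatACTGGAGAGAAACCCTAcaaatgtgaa
ZNF85: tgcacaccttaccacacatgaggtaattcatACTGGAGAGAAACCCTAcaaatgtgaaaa
ZNF493: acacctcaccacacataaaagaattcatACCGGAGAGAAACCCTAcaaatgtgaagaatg
ZNF729: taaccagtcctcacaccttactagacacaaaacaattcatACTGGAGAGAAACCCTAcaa
On these probes the differences were -0.16 for ZNF253, -0.44 for ZNF85, -0.43 for ZNF493 and -0.57 for ZNF729, all on the lower side. The linker codons, searched as ACNGGNGANAANCCNTA on the probe strand, occurred in 12 of the 373 ZNF probes (3.22%) and in 22 of all 58201 probes (0.0378%). A run of at least 20 bases shared with a probe of another gene was found for 29 ZNF probes (7.77%, against 2.36% of all probes), in 27 members, so the values of those genes may mix transcripts. Leaving such probes out left 160 genes with a median of -0.32.

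Cluster 5 (35.04 to 35.45 Mb) was small, and its 4 detected genes ZNF807, ZNF302, ZNF181 and ZNF30 were all lower. ZNF30 went from -0.34 to -1.49 on its brighter probe (-1.15), and its second probe differed by -0.35. The other 3 lay between -0.56 and -0.49.

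Cluster 6 (36.67 to 38.23 Mb) had the largest share of undetected genes, 11 of 26, and 13 of the 15 detected were below 0. ZNF607 was lowest, from 3.30 to 2.00 (-1.30). ZNF565 was highest, from -0.76 to -0.48 (0.28, below 0 with spike-in scaling). The probes of ZNF850 disagreed most of all members: the brightest, at 37252606 to 37253231, differed by -0.10, while those at 37240199 to 37240258 and 37234619 to 37234678 went from -0.90 to -2.87 (-1.96) and from -0.26 to -2.57 (-2.32). By the brightest-probe rule ZNF850 counts as little different, and by either of its other probes it would be the lowest member detected on both arrays. Which transcripts of ZNF850 the probes share was not tested.

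Cluster 7 (44.04 to 45.58 Mb) was the most mixed, with 8 of 20 genes above 0. Spike-in scaling puts all of these but ZNF224 below 0. Yet 4 genes of the cluster (20%, against 9.78% of all genes) were at least 2-fold lower. ZNF180 went from 0.57 to -0.92 (-1.49), ZNF296 from -1.67 to -2.89 (-1.22), ZNF576 from 2.21 to 1.05 (-1.16) and ZNF45 from -0.38 to -1.38. ZNF45, at 2.002-fold, was the member just inside the threshold. ZNF224, a known repressor of the aldolase A gene, was highest, from -2.23 to -1.74 (0.48). ZNF428 was near equal on both of its probes, 0.09 and 0.07, which spike-in scaling puts below 0. The 23 other detected genes of the interval had a median of -0.48, lower than the ZNF genes themselves.

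Cluster 8 (52.09 to 54.08 Mb) was the tightest of the large clusters (quartiles -0.37 and -0.03), with 21 of 25 genes below 0. The 9 consecutive detected genes from ZNF480 to ZNF600 were all lower. Within that run ZNF480 went from -0.11 to -1.21 and ZNF83 from -1.02 to -2.37, the latter on a probe that shares a run with that of ZNF320. ZNF577 was well above background with the control vector only (level -1.75), a bound of at least 4.91-fold lower, the largest bound of any member. It rests on 1 of the 3 probes of ZNF577, chosen as the brightest of those detected with the control vector. The highest was ZNF28, from -1.29 to -1.01 (0.28, below 0 with spike-in scaling).

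Cluster 9 (56.00 to 58.99 Mb) had 16 of its 45 detected genes above 0, of 42 such members in all. Spike-in scaling puts the smaller of these differences below 0. At 1.5-fold the cluster had 6 genes higher and 9 lower, where 18.4% and 22% of all genes were. Its lowest genes were ZNF544, from 2.65 to 1.17 (-1.48, second probe -0.49), ZNF551 (-1.09) and ZNF787 (-1.03). ZNF274, which guides SETDB1 to other ZNF genes, lies next to ZNF544 and went from 0.999 to 0.209 (-0.79). ZNF530 was seen with the control vector only (level -2.14), 3.58-fold above its undetected level of -3.98 with the DLEU1 vector. The 8 detected genes from ZNF586 to ZNF606 were all below 0. The 39 other detected genes of the interval had a median of -0.26, lower than the -0.18 of the ZNF genes.

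The higher genes of cluster 9 lay partly side by side. Between ZNF524 and ZNF581, over 41.9 kb (56114374 to 56156265), 4 of the 5 detected ZNF genes were higher, a window chosen after its values were seen. ZNF580 went from 3.03 to 3.93 (0.90, or 1.87-fold), ZNF524 from 1.72 to 2.58 (0.86) and ZNF581 from 1.17 to 1.83 (0.67). ZNF784 went from 1.60 to 2.01 (0.42), which became -0.05 with spike-in scaling. The other gene of the window, ZNF865, went from 9.53 to 9.25 on its brightest probe. That difference became 0.0 with quantile normalization and 0.004 with loess. Its other probes were far dimmer (control levels -0.25 and -2.87) and differed by -0.69 and 0.24. Whether the bright signal comes from ZNF865 was not tested. Within 100 kb of this window 7 other genes were detected, 6 of them below 0 (median -0.31), among them FIZ1 (-0.32) and U2AF2 (-0.34).

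Further along, ZNF264 went from 2.10 to 2.65 (0.55), ZNF329 from 3.20 to 3.83 (0.63) and ZNF446, the last ZNF gene of the chromosome, from 2.86 to 3.57 (0.71). ZNF497 was higher on both of its probes, 0.66 and 0.52. ZNF547 had 1 probe at 0.54 and another at -0.91, so its direction is not settled. Except for ZNF784 and ZNF547, the genes named here as higher in cluster 9 kept their direction under every setting run.

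Of the isolated genes, ZNF333 was higher on both of its probes (0.88 and 0.70), going from -1.46 to -0.58 on the brighter. ZNF507 went from -2.77 to -3.80 (-1.03). ZNF473, which takes part in histone mRNA processing, went from -0.35 to -1.07 (-0.72). ZNF780B was seen with the DLEU1 vector only. On 1 of its 2 probes it was 1.67-fold above its undetected control level (-3.95).

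Neighbouring genes were only weakly alike in their differences. Over 158 pairs of detected neighbours within a cluster, the correlation of their differences was 0.10. Probe base content showed a weak relation, with r of 0.23 over the detected members and 0.03 over all genes. The 23 members with probes of at least 50% GC had a median of -0.03 and 11 of them were higher, while the 68 under 40% and the 84 between had medians of -0.32 and -0.35. All genes in the same GC ranges had medians of 0.01, -0.04 and -0.15. These are descriptions across genes on the same arrays, and genes are not independent replicates. Of the 43 members with several detected probes, 27 had all probes on the same side of 0, and 3 had probes more than 1 log2 unit apart (ZNF850, ZNF547 and ZNF728, the latter at 0.31 and -0.76).

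Promoters of the members were examined in RefSeq (GRCh38.p14), as the 250 bases before the transcription start. Of the 248 genes, 209 had an entry. Their median number of CG dinucleotides was 16, as for 22199 protein-coding genes, and it was 16 for members detected on both arrays and 15 for those on neither. The core letters of the ETS family site, CCGGAAG on either strand, occurred in 66 members (31.6%). The share was 11.4% of the 1280 other protein-coding genes of chromosome 19, 23.6% of the ZNF genes of other chromosomes and 8.52% of all 35116 promoters. It was 33.1% of members detected on both arrays and 28% of those on neither. The 50 detected members with the letters had a median difference of -0.39 and those without them -0.23. Among the members at least 2-fold lower, 4 of 16 (25%) held the letters, a smaller share than among all detected members.

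Promoters of 4 members are shown because they carry the ETS letters and their genes differ in readout. By brightest-probe values among members detected on both arrays, ZNF100 and ZNF180 had the largest lower differences and ZNF580 the largest higher one, and ZNF582 was on neither array. Each is written 5′ to 3′ on the strand of its gene and ends at the base before the start, and capitals mark the ETS letters.
ZNF100 (chr19:21767580-21767829, minus strand, 8 CG): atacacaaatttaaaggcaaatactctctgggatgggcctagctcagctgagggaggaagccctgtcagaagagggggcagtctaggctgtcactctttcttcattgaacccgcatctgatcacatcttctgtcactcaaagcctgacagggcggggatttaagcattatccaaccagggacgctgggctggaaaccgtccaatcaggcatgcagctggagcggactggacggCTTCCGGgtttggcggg
ZNF180 (chr19:44500523-44500772, minus strand, 24 CG): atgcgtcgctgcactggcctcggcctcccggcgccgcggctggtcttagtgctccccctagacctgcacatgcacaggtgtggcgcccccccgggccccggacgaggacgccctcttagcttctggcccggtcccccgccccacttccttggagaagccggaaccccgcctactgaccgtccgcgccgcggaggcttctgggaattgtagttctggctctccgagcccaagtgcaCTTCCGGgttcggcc
ZNF580 (chr19:55640752-55641001, plus strand, 30 CG): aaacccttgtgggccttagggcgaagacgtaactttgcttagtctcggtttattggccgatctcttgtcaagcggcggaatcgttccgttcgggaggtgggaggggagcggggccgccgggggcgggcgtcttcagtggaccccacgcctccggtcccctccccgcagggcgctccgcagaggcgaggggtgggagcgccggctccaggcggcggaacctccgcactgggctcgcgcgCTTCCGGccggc
ZNF582 (chr19:56393535-56393784, minus strand, 23 CG): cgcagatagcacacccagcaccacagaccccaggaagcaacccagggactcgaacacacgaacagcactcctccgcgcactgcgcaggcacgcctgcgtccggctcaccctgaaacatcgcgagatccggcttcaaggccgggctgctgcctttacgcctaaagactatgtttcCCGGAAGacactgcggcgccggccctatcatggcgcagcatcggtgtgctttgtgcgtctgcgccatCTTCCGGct
Other members at either end of the range, such as ZNF544, ZNF607, ZNF581 and ZNF784, lacked the letters in this window, as did the undetected ZNF583, ZNF470, ZNF71 and ZNF835. A match of letters is a description of the window and shows no binding.

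A list of 26 names, of KRAB corepressors and of other chromatin silencing genes, was measured on the same arrays. Of these names 25 had a probe, all detected. TRIM28 itself lies beyond cluster 9 (59061599 to 59061750) and went from 4.796 to 4.044 (-0.75). SETDB1 went from 3.97 to 4.46 (0.49), on the opposite side. The heterochromatin proteins CBX1 (-0.39), CBX3 (-0.96) and CBX5 (-0.80) were lower but, like TRIM28, short of 2-fold. Of the 25, 19 (76%) were lower, against 54.2% of all genes, and 6 higher, with a median of -0.34. Past 2-fold were 6 (24%) on the lower side, against 9.78% of all genes, and 0 on the higher, against 9.18%. Those 6 were SUV39H1 (-2.74) and SUV39H2 (-1.93), which methylate histone H3 at lysine 9, the maintenance methylation genes UHRF1 (-2.27) and DNMT1 (-1.74), the chromatin remodeler HELLS (-2.67), and FAM208A (-1.05), the older name of TASOR in the HUSH silencing complex. Several of these are known to be highest in dividing cells, and the proliferation list was lower throughout, so the lists cannot be told apart here. ATRX (0.90) and DNMT3A (0.74) were the highest.

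Of 15 other zinc finger names on chromosome 19, 6 were detected on both arrays, and 4 of these were above 0 (median 0.35). ZSCAN5A went from 1.70 to 1.26, whereas ZSCAN1 went from -3.42 to -2.74 and PEG3, an imprinted gene in cluster 9, from -3.61 to -2.27 (1.34). ZFP36, an RNA-binding protein with fingers of another kind, went from 2.09 to 3.05.

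The members' median was compared over the processing settings. It was below that of all genes in each of the 18 settings, by 0.17 to 0.27, while the medians themselves moved between -0.78 and -0.20. Median scaling, spike-in scaling, no scaling and the 75th percentile over detected probes each shift every gene alike. Under these the distance from all genes (-0.25) was fixed at that of the main setting, so they are no separate support. At the 2-fold threshold the lower count ran from 5 (2.86%, against 6.98% of all genes) with normexp background correction to 51 (29.1%, against 23.99% of all genes) with spike-in scaling. The members' lower share was thus below that of all genes in the first case and above it in the second.

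**Figure D5:**
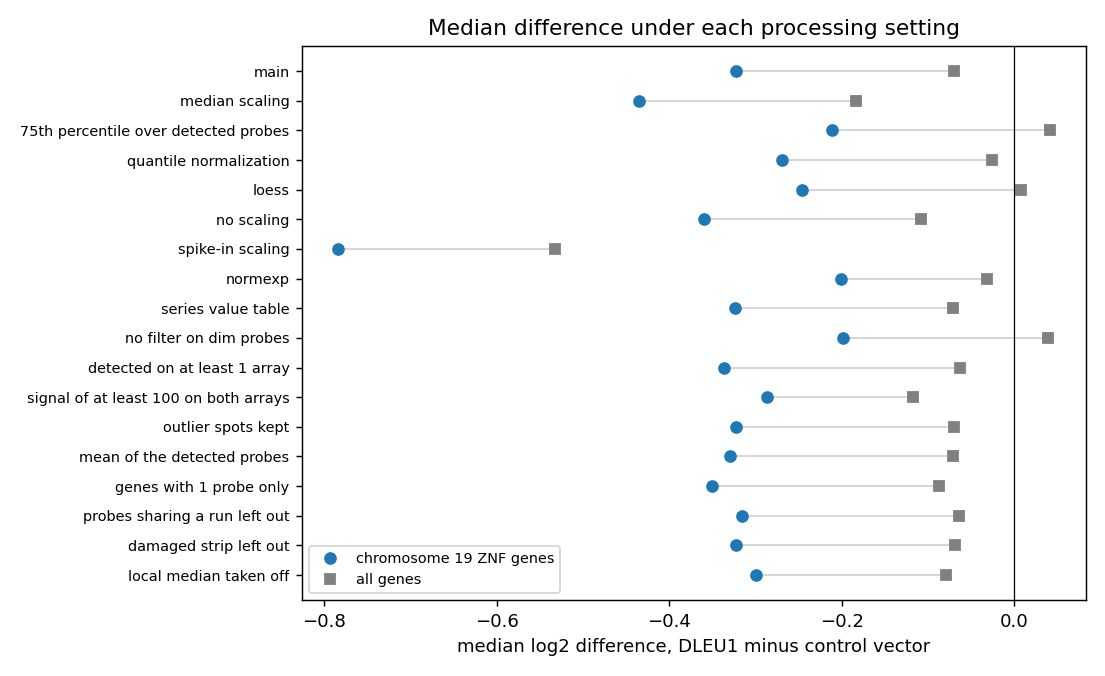
Median log2 difference of the chromosome 19 ZNF genes (circles) and of all genes (squares) under the main setting and 17 alternatives. The circle lies left of the square in every line, by 0.17 to 0.27. The medians of all genes change sign with the setting, and those of the ZNF genes stay below 0. For median scaling, spike-in scaling, no scaling and the percentile over detected probes the distance equals that of the main setting by construction.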

How the data were processed

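Total RNA from each culture was labelled with Cy3 and hybridised to a SurePrint G3 Human GE v3 array. Per the file headers, Agilent Feature Extraction 10.7.3.1 made the deposited intensity values, with local background taken off, spatial trends corrected and surrogates in place of very dim signals. The authors used GeneSpring GX 13. The intensity values were not normalized between arrays, and the series values were the same signals, rounded (at most 0.497% apart). Probe positions are hg19.

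From these, control spots (leaving 60901 of 62976) and outlier spots (84 control vector, 103 DLEU1 vector) were dropped. No spot was saturated (0). The log2 of the deposited intensity was averaged per probe and the array's 75th percentile subtracted. A probe was detected where most of its spots were well above background (47.6% and 48.1% of 58201 probes). Where a gene was detected on 1 array, its bound was the bright level against the higher of the dim level and the lowest detected level of that array. Where the dim level was the higher, as for ZNF530 and ZNF780B, the value is a plain ratio to an undetected signal. Calls were made at 2-fold, with no test. The steps were tested on simulated data.

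Members, lists and clusters were chosen with earlier results of these data known. Named were the 12 largest differences each way with all probes in 1 direction, the top 5 bounds each way, cluster extremes, the brightest member and members whose probes disagreed. Genes named for a known role or a position were chosen after their values were seen. A damaged strip on the DLEU1 vector array (194 spots), also defined after seeing the data, held 1 member probe, of ZNF134, which was on neither array. Protein sequences were not analysed here. Another marker gene of the lists is not reported here. Python 3.11.15, pandas 2.3.3, R 4.3.3 and limma 3.58.1 were used.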

Additional observations from a re-analysis of the deposited data

How the results depend on the processing

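No paired analysis was possible because each vector had 1 array. The members' median of -0.32 was -0.44 after median scaling, -0.21 when the percentile was taken over detected probes, -0.78 with spike-in scaling, -0.20 with normexp and -0.20 (-0.198) without the filter on dim probes. The scalings moved the median of all genes by -0.11 (median), 0.11 (75th percentile over detected probes) and -0.46 (spike-in), so for these the distance from all genes did not move. The distance from all other genes, -0.26, was -0.17 with normexp and -0.17 where both signals were at least 100. The distance from the ZNF genes of other chromosomes, -0.19, was -0.10 without the filter.

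The count of 0 members at least 2-fold higher became 1 under the percentile of detected probes, 1 under quantile normalization and 1 under loess. It became 9 at 1.5-fold. Without the filter it became 5 (2.02%, against 9.77% of all genes), beside 28 lower members (11.3%, against 8.79%). Those 5 were ZNF331, ZNF599, ZNF702P, ZNF730 and ZNF772, all on neither array. The 19 lower members became 10 under the percentile of detected probes, 51 with spike-in scaling, 5 with normexp, 10 with a signal of at least 100, 12 with genes of 1 probe only, 46 at 1.5-fold and 1 at 3-fold. The lower share was 5.71% of members against 7.78% of all genes under the percentile of detected probes, 29.1% against 23.99% with spike-in scaling and 2.86% against 6.98% with normexp, so it was near the share of all genes under the main setting but not under these. The 5 under normexp were all among the 19. The number of members counted fell to 117 with a signal of at least 100, where the lower share was 8.55% against 10.2% of all genes. With genes of 1 probe only it fell to 103, where the lower share was 11.7% against 10.5%. The cause of these moves was not tested, beyond the smaller number of genes under these 2 settings.

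The median of cluster 1 became 0.062 under the percentile of detected probes and 0.0703 with genes of 1 probe only, and that of cluster 7 became 0.0027 with a signal of at least 100. All other cluster medians stayed below 0 under the 17 alternatives, as they did when clusters were divided at gaps over 0.5 Mb (10 clusters) or 2 Mb (6 clusters). Of the 35 members named by the rule above and detected on both arrays, 9 changed sign under some alternative, and none of the 13 that passed 2-fold. Members named for other reasons are outside this count, and some of them, such as ZNF428, also changed sign. Leaving out probes with a saturated spot changed nothing, since there were 0.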
